A study of Mus musculus with 2 samples.

Results

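The guanylate-binding proteins are a family of large GTPases that interferons induce in macrophages, and 8 of their genes were followed here: Gbp2, Gbp3, Gbp4, Gbp5, Gbp6, Gbp7, Gbp8 and Gbp9. They were taken by symbol from the 22597 genes of the deposited count matrix, and all 8 were present. Values of 2 further family rows, Gbp2b and Gbp10, are given separately. The cells came from lungs of chimeric mice, made by giving donor marrow to irradiated hosts of the IM-DTR strain (CD45.1+CD45.2+), in which diphtheria toxin can deplete interstitial macrophages. Donor marrow was CD45.1-CD45.2+. In the Tgfbr2-KO group its genotype was LyzM-Cre Tgfbr2 fl/fl, where Cre, driven by the lysozyme M locus of myeloid cells, should excise the floxed part of the TGF-beta receptor 2 gene. In the control group the donors were Tgfbr2 fl/fl and had no Cre. Both groups were given 50 ng of diphtheria toxin 10 days before sacrifice, and donor cells with the surface markers CD11b and CD64 and low side scatter, but without Ly6G or SiglecF, were sorted. Ages were not used here.

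Cells of 5 mice were pooled per genotype, the Tgfbr2-KO pool was tagged with hashtag B0303 and the control pool with hashtag B0301, and both entered 1 droplet-based 3′ RNA library. Mice within a pool carry no tag, so there was 1 pool per genotype and no replicate. No test was made: each value describes these pools, and the exact 95% intervals given in parentheses cover counting error only. Levels are unique molecular identifiers (UMIs) of a gene per 1000000 gene UMIs (UPM). After filtering, the Tgfbr2-KO pool held 2674 cells with 30729204 UMIs and a median of 10277.5 UMIs per cell, and the control pool 1896 cells, 16298452 UMIs and a median of 7785 UMIs. Tgfbr2 itself stood at 195 UPM in the Tgfbr2-KO pool and 215 UPM in the control pool. Its 3′ tags can lie outside the deleted part, so they do not measure the deletion.

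Guanylate-binding proteins assemble on the vacuoles or surfaces of intracellular bacteria and parasites, help to open them, and promote inflammasome activation. Their genes are induced most strongly by interferon gamma, and also by type I interferons. In the mouse they lie in 2 clusters. Gbp5, Gbp7, Gbp3, Gbp2b and Gbp2 lie in this order on chromosome 3, between 142496934 and 142638008 of GRCm38, and Gbp8, Gbp9, Gbp4, Gbp10 and Gbp6 lie on chromosome 5, between 105012513 and 105295871. Neighbouring members are close in sequence. How reads that match several members were counted is not stated in the files or labels, so the split of UMIs between members is uncertain, while their sum is less so.

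The promoters of Gbp2, Gbp3, Gbp5 and Gbp7 are shown because interferon-activated factors are known to act at such promoters. Windows were available for these members only. Whether the motifs bear on the levels in these pools was not tested. RefSeq windows of 300 bases, with 250 bases before and 50 after each start, were available for 4 of the 8 members. They were searched on both strands for GAAA and GAAA parted by any 2 bases, the core of the interferon-stimulated response element bound by IRF proteins, and for TTCNNNGAA, the gamma-activated site, through which interferon gamma acts. The 250 bases before the start are printed 5′ to 3′ on the + strand of GRCm38.p6, and capitals mark the matches. The response element lies on the other strand in each and so reads there as TTTC and TTTC parted by 2 bases.
Gbp2 (chr3:142620413-142620662): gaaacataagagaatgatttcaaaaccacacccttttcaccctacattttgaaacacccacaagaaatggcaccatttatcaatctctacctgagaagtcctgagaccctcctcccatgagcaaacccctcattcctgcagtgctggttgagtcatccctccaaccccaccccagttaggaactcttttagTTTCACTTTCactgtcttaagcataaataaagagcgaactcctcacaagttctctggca
Gbp5 (chr3:142496684-142496933): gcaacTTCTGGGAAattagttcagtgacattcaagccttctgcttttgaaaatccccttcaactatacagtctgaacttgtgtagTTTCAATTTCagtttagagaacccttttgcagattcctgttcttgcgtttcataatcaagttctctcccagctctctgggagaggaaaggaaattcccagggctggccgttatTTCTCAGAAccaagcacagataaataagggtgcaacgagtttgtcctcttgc
Gbp7 (chr3:142530086-142530335): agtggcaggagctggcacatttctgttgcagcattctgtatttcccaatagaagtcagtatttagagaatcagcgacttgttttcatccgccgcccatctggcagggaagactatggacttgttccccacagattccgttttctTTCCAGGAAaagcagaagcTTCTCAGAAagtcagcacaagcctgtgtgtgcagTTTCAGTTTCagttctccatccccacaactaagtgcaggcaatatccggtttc
Gbp3 (chr3:142559794-142560043): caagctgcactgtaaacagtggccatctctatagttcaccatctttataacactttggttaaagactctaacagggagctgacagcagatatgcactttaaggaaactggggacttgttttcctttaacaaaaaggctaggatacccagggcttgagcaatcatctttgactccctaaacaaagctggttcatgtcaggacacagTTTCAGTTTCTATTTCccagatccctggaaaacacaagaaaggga

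All 4 members with a window held the response element, in 4 of their 5 windows, against 3.99% of the 27025 genes and 3.44% of the 32851 windows of the whole table. The match lay 59 to 50 bases before the start in Gbp2, 53 to 44 bases before it in Gbp7 and 165 to 156 bases before it in Gbp5. Gbp3 held a pair of matches that overlap each other, within the stretch from 45 to 30 bases before the start, and its other annotated start, whose window begins at 142560106, held none. The gamma-activated site occurred in 9.55% of all genes and 8.30% of all windows. Gbp5 and Gbp7 each held 2 of these sites, and no match to these letters lay in the windows of Gbp2 and Gbp3. Matches of the 2 motifs did not overlap. Both motifs together occurred in 0.540% of all genes and 0.454% of all windows. Gbp4, Gbp6, Gbp8 and Gbp9 are named only.

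The whole family was higher in the Tgfbr2-KO pool. Its 8 genes together stood at 656 UPM (647 to 666) in the Tgfbr2-KO pool and 101 UPM (95.9 to 106) in the control pool, 6.52-fold higher (6.20 to 6.86). All 8 members had at least 20 UMIs over both pools and all 8 were at least 1.5-fold higher in the Tgfbr2-KO pool, where 15.0% of the 12508 genes with that many UMIs were higher and 10.5% lower. The median log2 ratio was 2.90 over the 8 members and 0.09 over those 12508 genes. Gbp6, with 3 control UMIs, passed that minimum through the Tgfbr2-KO pool alone. Under a stricter minimum of 100 UMIs over both pools and 100 UPM in 1 of them, Gbp2 and Gbp7 were counted, and both were higher, against 11.4% of 1736 genes.

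Gbp2, a GTPase that is anchored to membranes by a lipid and gathers on parasite vacuoles in mouse cells, had 305 UPM (299 to 311) in the Tgfbr2-KO pool and 19.7 UPM (17.6 to 22.0) in the control pool. That is 15.5-fold higher (13.8 to 17.4), and it ranked first among the members by level in the Tgfbr2-KO pool and came after Gbp7 and Gbp3 in the control pool. Such an order across genes rests on 3′ tags, which count transcript ends and need no scaling by length. Gbp5, also lipid-anchored and a promoter of NLRP3 inflammasome assembly in mice, had 56.8 UPM in the Tgfbr2-KO pool and 6.26 UPM in the control pool, 9.08-fold higher (7.43 to 11.2). Gbp7, which brings NADPH oxidase parts to bacterial vacuoles in mouse macrophages, had 102 UPM in the Tgfbr2-KO pool and 32.6 UPM in the control pool, 3.12-fold higher (2.85 to 3.43). Gbp3, seen on parasite vacuoles in mouse cells, had 94.1 UPM in the Tgfbr2-KO pool and 30.8 UPM in the control pool, 3.06-fold higher (2.78 to 3.37). Gbp7 and Gbp3 had the highest levels of the family in the control pool and the smallest folds.

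The chromosome 5 members were less abundant than those of chromosome 3 in the Tgfbr2-KO pool, while in the control pool Gbp8 stood slightly above Gbp5. Gbp8 had 41.4 UPM in the Tgfbr2-KO pool and 6.75 UPM in the control pool, 6.13-fold higher (5.04 to 7.52). Gbp4 had 38.5 UPM (36.3 to 40.8) in the Tgfbr2-KO pool and 1.47 UPM (0.943 to 2.19) in the control pool, 26.1-fold higher (17.5 to 41.0). Gbp9 had 13.9 UPM in the Tgfbr2-KO pool and 2.88 UPM in the control pool, 4.81-fold higher (3.55 to 6.64). Gbp6 was the rarest member, with 155 UMIs or 5.04 UPM in the Tgfbr2-KO pool and 3 UMIs or 0.184 UPM in the control pool, a ratio of 27.4 with an interval from 9.20 to 134. These folds therefore rest on few control UMIs, 24 for Gbp4 and 47 for Gbp9. With every cell thinned to 3000 UMIs the log2 ratio of Gbp9 was 3.31 against 2.27, and Gbp6 had no control UMI, so that its log2 ratio had only a lower bound of 2.90.

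Of the 2 further rows, Gbp2b, which lies between Gbp3 and Gbp2 and was formerly named Gbp1, had 50.6 UPM in the Tgfbr2-KO pool and 2.09 UPM in the control pool, 24.3-fold higher (17.3 to 35.2). Gbp10 had 3 UMIs in the Tgfbr2-KO pool and 0 in the control pool, and no fold is given. Neither row counts among the 8 members.

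**Figure D1:**
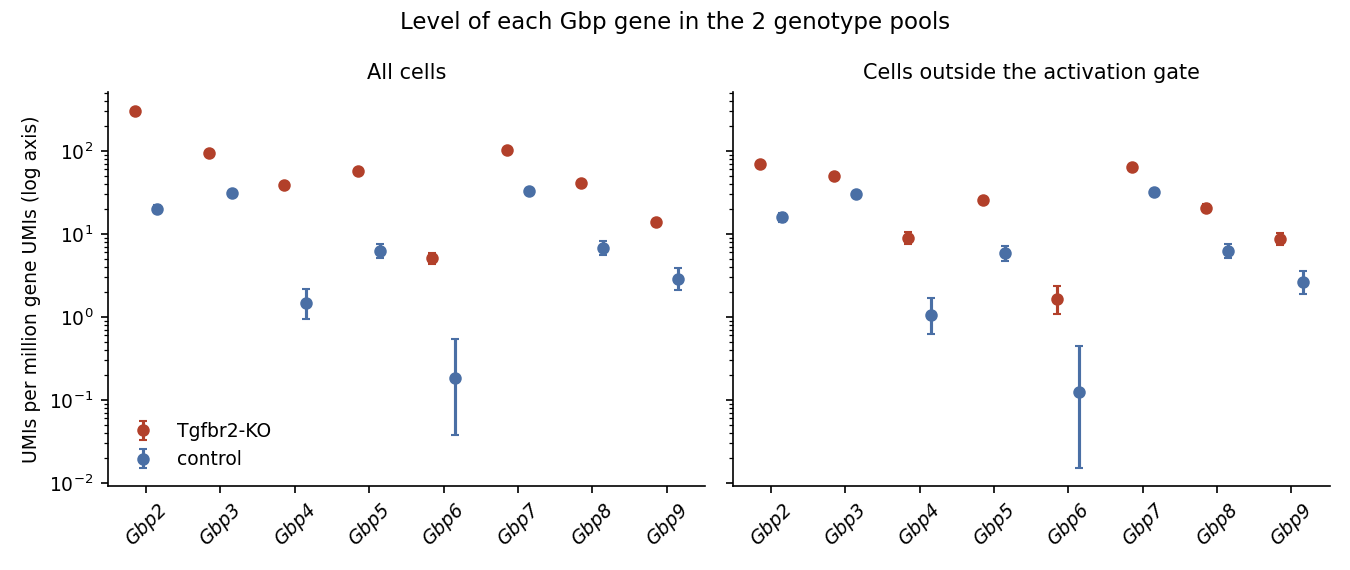
Level of each of the 8 Gbp genes in UPM on a log axis, in the Tgfbr2-KO pool (red, left of each pair) and the control pool (blue), over all cells on the left and over cells outside the activation gate on the right. Points are pool values and bars are exact 95% Poisson intervals: every red point lies above its blue partner in both panels, and the gap is widest for Gbp4 and Gbp6 and narrowest for Gbp3 and Gbp7.

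RNA free in the suspension can add Gbp UMIs to cells. Barcodes with under 100 UMIs, which hold mostly such RNA, carried 461 UPM of the family. From haemoglobin genes, which belong to red cells, free RNA made up at most 1.36% of the UMIs of Tgfbr2-KO cells and 3.10% of those of control cells, as upper limits of counting. At these limits it would supply up to 6.29 of the 656 UPM of the family in the Tgfbr2-KO pool and up to 14.3 of the 101 UPM in the control pool. By member, the limit was at most 1.53% of the level in the Tgfbr2-KO pool. In the control pool it was 84.2% of the level of Gbp4, 31.7% of that of Gbp2, 24.1% of that of Gbp6 and 21.3% of that of Gbp8, but 5.82% of that of Gbp3 and 6.38% of that of Gbp7. The control level of Gbp4 was therefore close to this limit, and with the limit subtracted its log2 ratio was 7.35 in place of 4.71.

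Much of the family's RNA in the Tgfbr2-KO pool was in activated cells. Cells were called activated at 5 or more UMIs per 10000 of Ly6a, Ly6i and Cxcl9 summed, 3 genes that interferons also induce and that lie outside the family. Since these genes answer to the same signals as the family, the split is a description. This gate took 957 Tgfbr2-KO cells (35.8%, 34.0 to 37.6) and 23 control cells (1.21%, 0.771 to 1.81). Those cells carried 79.5% of the family's 20172 UMIs in the Tgfbr2-KO pool and 8.17% of its 1641 UMIs in the control pool. Activated cells were also deeper, with a median of 14056 UMIs against 8505 in the other Tgfbr2-KO cells. In all, 105 of 4570 cells lay within 20% of the gate.

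Outside the gate the family was higher in the Tgfbr2-KO pool too, by less. It stood at 249 UPM in 1717 Tgfbr2-KO cells and 93.8 UPM in 1873 control cells, 2.66-fold higher (2.51 to 2.82). All 8 members were at least 1.5-fold higher there, where 11.9% of 12119 genes were higher and 5.59% lower, and their median log2 ratio was 1.92 against 0.09 over those genes. Gbp2 had 69.2 UPM in Tgfbr2-KO cells and 15.8 UPM in control cells, 4.38-fold higher (3.82 to 5.04). Gbp4 had 148 UMIs in Tgfbr2-KO cells and 17 in control cells, 8.45-fold higher, and Gbp5 was 4.34-fold higher (3.46 to 5.49). Gbp8 and Gbp9 were both 3.31-fold higher. The smallest folds were again those of Gbp7, 2.02 (1.82 to 2.25), and Gbp3, 1.67 (1.49 to 1.87). Gbp6 had 27 UMIs in Tgfbr2-KO cells and 2 in control cells.

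Within the gate the pools were closer. The family stood at 1132 UPM in the 957 Tgfbr2-KO cells and 594 UPM in the 23 control cells, 1.90-fold higher (1.61 to 2.27). Gbp2 had 580 UPM in these Tgfbr2-KO cells and 297 UPM in these control cells, 1.95-fold higher (1.53 to 2.52). The intervals for Gbp6, Gbp8 and Gbp9 included 1 there, with 1, 10 and 5 control UMIs. Of the control UMIs in the gate, 2 cells held 53 of 134 for the family and 37 of 67 for Gbp2. The control values thus rest on few cells.

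Levels climbed with the activation score inside each pool. In Tgfbr2-KO cells, the family stood at 178 UPM with no Ly6a, Ly6i or Cxcl9 UMI, 401 UPM under 5 per 10000, 629 UPM from 5 to 20, 1037 UPM from 20 to 60, and 1833 UPM at 60 or more. In control cells the same steps had 90.4, 121, 309, 884 and 2352 UPM, the last 3 from 18, 3 and 2 cells. At no activation UMI, 1293 Tgfbr2-KO cells and 1701 control cells were compared, with median depths of 7904 and 7619 UMIs, and the family was higher in the Tgfbr2-KO cells. The members differed in their span. Between no score and a score of 60 or more in Tgfbr2-KO cells, Gbp4 was 28.5-fold higher in the high cells, Gbp2 24.1-fold, Gbp6 11.2-fold, Gbp5 8.68-fold, Gbp8 5.96-fold, Gbp3 5.03-fold, Gbp7 3.98-fold and Gbp9 3.29-fold. Depth moved with the score, from a median of 7904 UMIs to 14158 UMIs over these steps in Tgfbr2-KO cells, and its part in the pattern was not tested.

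**Figure D2:**
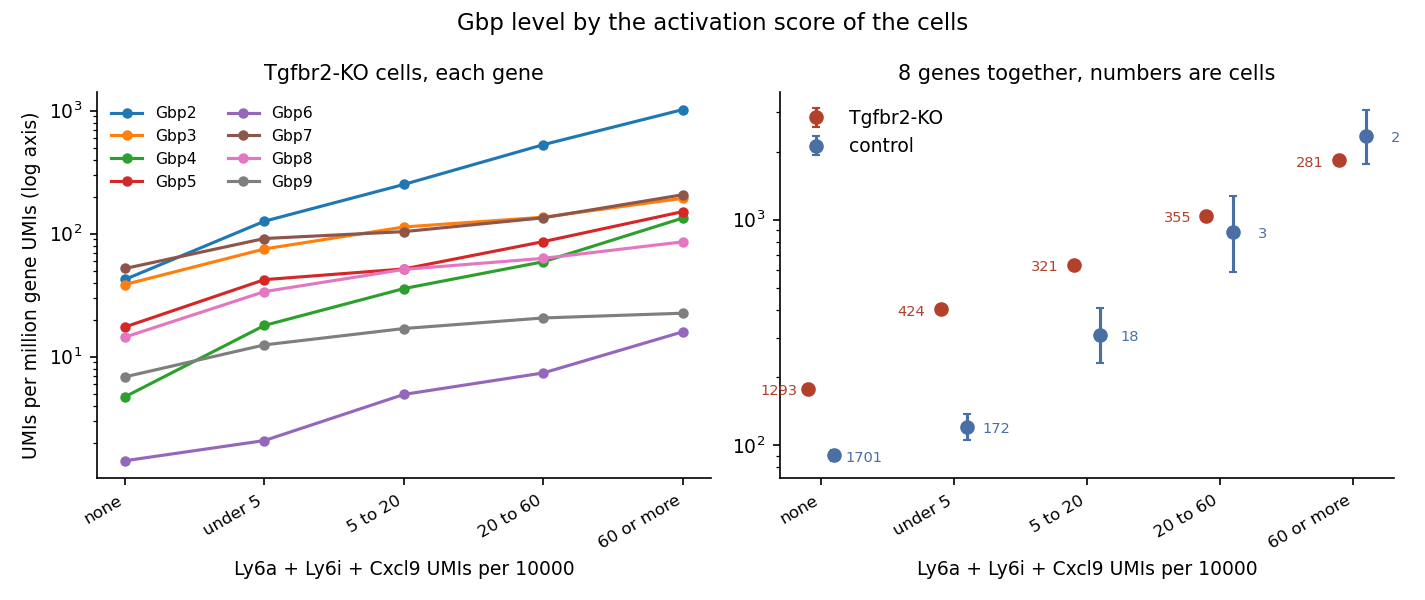
Gbp level in UPM on log axes by the summed Ly6a, Ly6i and Cxcl9 UMIs per 10000 of the cells. The left panel gives each gene in Tgfbr2-KO cells, where Gbp2 and Gbp4 climb most steeply, and the right panel gives the 8 genes together in Tgfbr2-KO cells (red, left) and control cells (blue) with exact 95% Poisson intervals and cell numbers; only 3 and 2 control cells stand in the 2 highest steps.

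The make-up of the family shifted toward Gbp2. Gbp2 supplied 46.4% (45.7 to 47.1) of the family's UMIs in the Tgfbr2-KO pool and 19.6% (17.7 to 21.6) in the control pool. Gbp7 supplied 15.5% in the Tgfbr2-KO pool and 32.4% in the control pool, and Gbp3 supplied 14.3% in the Tgfbr2-KO pool and 30.6% in the control pool. Inside the activation gate the share of Gbp2 was 51.2% (50.5 to 52.0) in Tgfbr2-KO cells and 50.0% (41.2 to 58.8) in control cells. This control share rests on few cells, since 37 of its 67 Gbp2 UMIs came from 2 cells. By score, the control share was 39.6% from 5 to 20, 32.1% from 20 to 60 and 69.8% at 60 or more. In Tgfbr2-KO cells these steps had 40.0%, 51.1% and 55.8%, so likeness of the 2 pools inside the gate cannot be judged. Outside the gate the share of Gbp2 was 27.8% (26.4 to 29.2) in Tgfbr2-KO cells and 16.9% (15.0 to 18.8) in control cells. In Tgfbr2-KO cells the share of Gbp2 was 23.8% with no activation UMI and 55.8% at a score of 60 or more.

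Because a pool level mixes the number of expressing cells with the UMIs per cell, cells with a UMI were counted after thinning each to 3000 UMIs, which left out 83 Tgfbr2-KO cells and 80 control cells. At least 1 UMI of any member was found in 52.9% (51.0 to 54.9) of 2591 Tgfbr2-KO cells and 22.0% (20.1 to 23.9) of 1816 control cells. Without thinning, these shares were 73.0% of 2674 Tgfbr2-KO cells and 43.4% of 1896 control cells. Gbp2 was found in 29.5% of thinned Tgfbr2-KO cells and 4.30% of thinned control cells. At its limit, free RNA would give a Gbp2 UMI to 0.820% of thinned Tgfbr2-KO cells and 1.85% of thinned control cells. Gbp7 was found in 19.8% of Tgfbr2-KO cells and 8.43% of control cells, and Gbp3 in 19.1% of Tgfbr2-KO cells and 9.14% of control cells. Gbp4 was found in 7.10% of Tgfbr2-KO cells and 0.441% of control cells. Free RNA at its limit would give a Gbp4 UMI to 0.371% of thinned control cells, so the control share of Gbp4 cannot be told apart from background. Gbp6 was found in 31 of 2591 Tgfbr2-KO cells and in 0 of 1816 control cells, which allows a share of up to 0.165% of control cells with a UMI.

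After thinning, several members were seen together in a minority of cells of each pool, and more often in the Tgfbr2-KO pool. At 3000 UMIs, 3 or more of the 8 members were found in 12.0% (10.7 to 13.3) of Tgfbr2-KO cells and 0.551% (0.264 to 1.01) of control cells. None was found in 47.1% of Tgfbr2-KO cells and 78.0% of control cells. Among activated Tgfbr2-KO cells, 27.9% (25.1 to 30.9) had 3 or more members. Among cells outside the gate, 2.91% (2.15 to 3.83) of Tgfbr2-KO cells and 0.390% (0.157 to 0.802) of control cells had them. The most members found in a cell were 7 in the Tgfbr2-KO pool and 6 in the control pool.

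**Figure D3:**
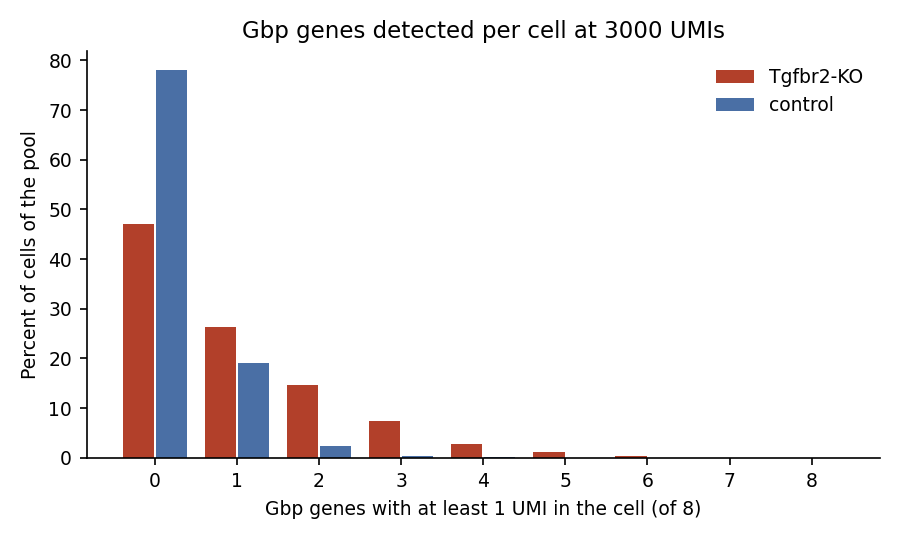
Percent of cells of each pool by the number of the 8 Gbp genes with at least 1 UMI, after thinning each cell to 3000 UMIs. Tgfbr2-KO bars (red, left) spread to 7 genes while control bars (blue) are mostly at 0 and 1: 12.0% of Tgfbr2-KO cells and 0.551% of control cells had 3 or more.

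Cells were then divided into 9 states by marker thresholds with no Gbp gene in them, and 4 states with at least 50 cells in each pool were compared. Macrophages with high complement C1q were split by Mrc1, the gene of the mannose receptor CD206, at 5 UMIs per 10000, and Mrc1-high macrophages by Folr2, Lyve1 and Cd163, markers of perivascular macrophages, at the same summed threshold. C1q medians in these 3 macrophage states were 133 to 139 UMIs per 10000 in both pools. Around the Mrc1 threshold 488 of 4570 cells lay within 20%, so Mrc1-low and Mrc1-high cells are ranges rather than separate types. The fourth state, other low-C1q cells, met no monocyte, dendritic, proliferating or structural threshold.

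The family was higher in the Tgfbr2-KO pool in all 4 states, with the largest folds in other low-C1q cells and Mrc1-low macrophages. In Mrc1-low macrophages it stood at 774 UPM (758 to 789) in 1074 Tgfbr2-KO cells and 100.3 UPM (92.8 to 108) in 810 control cells, 7.71-fold higher (7.12 to 8.36). In Mrc1-high macrophages below the Folr2, Lyve1 and Cd163 threshold it stood at 388 UPM in 590 Tgfbr2-KO cells and 102 UPM in 541 control cells, 3.82-fold higher (3.44 to 4.24). In Mrc1-high macrophages above that threshold it stood at 291 UPM in 356 Tgfbr2-KO cells and 108 UPM in 187 control cells, 2.70-fold higher (2.31 to 3.17). The control levels of these 3 states lay within each other's intervals, and the Tgfbr2-KO levels did not.

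Activated cells were unevenly shared among the states. They made up 46.4% of Tgfbr2-KO and 1.48% of control Mrc1-low macrophages. Below the perivascular threshold they made up 19.3% of Tgfbr2-KO and 0.555% of control Mrc1-high macrophages, and above it 12.6% of Tgfbr2-KO and 0.535% of control Mrc1-high macrophages. With activated cells left out, the fold of the family was 2.24 (2.02 to 2.50) in Mrc1-low macrophages, 2.04 (1.81 to 2.29) in Mrc1-high macrophages below the perivascular threshold and 2.23 (1.89 to 2.63) above it, with intervals that overlap. The differences in fold between the 3 macrophage states in all cells were thus not seen outside the gate.

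Other low-C1q cells had 854 UPM of the family in 183 Tgfbr2-KO cells and 74.1 UPM in 98 control cells, 11.5-fold higher (8.49 to 16.0), and 5.19-fold (3.79 to 7.30) outside the gate. The median depth differed here more than elsewhere, at 13363 UMIs in Tgfbr2-KO cells and 3576 UMIs in control cells, so these are unlike cells. With every cell thinned to 3000 UMIs the log2 ratio of the family in this state was 3.58 against 3.53.

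By member, 8 of 8 with at least 20 UMIs were 1.5-fold higher in Mrc1-low macrophages, against 17.7% of genes. The count was 8 of 8 against 12.5% in Mrc1-high macrophages below the perivascular threshold, 6 of 7 against 11.7% above it, and 7 of 7 against 22.4% in other low-C1q cells. Outside the gate the counts were 7 of 7 against 8.48% in Mrc1-low macrophages, 6 of 7 against 9.89% in Mrc1-high macrophages below the threshold, 5 of 6 against 10.9% above it, and 6 of 6 against 18.5% in other low-C1q cells. No member was 1.5-fold lower in any of these comparisons, whether over all cells, by state or outside the gate. The minimum of 20 UMIs is summed over both pools. A member can thus pass it through the Tgfbr2-KO pool alone, which favours a higher ratio. In other low-C1q cells no counted member had more than 11 control UMIs, with or without activated cells. With activated cells included, Gbp4 had 14, 2, 1 and 4 control UMIs in the 4 states, in the order above.

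The ratio of Gbp2 over all cells of a state differed widely. It had 392 UPM in Mrc1-low macrophages of the Tgfbr2-KO pool and 21.2 UPM in those of the control pool, 18.5-fold higher (15.6 to 22.1), but 60.6 UPM in Tgfbr2-KO and 16.1 UPM in control Mrc1-high macrophages with Folr2, Lyve1 and Cd163, 3.77-fold higher (2.53 to 5.82). Outside the activation gate the ratios were 3.87 (3.005 to 5.04) in Mrc1-low macrophages and 2.76 (1.81 to 4.36) in the perivascular-marked ones, with intervals that overlap. In that perivascular-marked state Gbp7 had 111 UPM (100.4 to 123) in Tgfbr2-KO cells and 54.5 UPM in control cells, 2.04-fold higher (1.63 to 2.59). Its Tgfbr2-KO level was alike in other low-C1q cells, at 111 UPM (97.5 to 125), and in monocyte-gated cells, at 109 UPM (96.4 to 122).

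Gbp5 and Gbp8 differed from each other in the perivascular-marked macrophages. Gbp5 had 16.3 UPM (12.3 to 21.3) in Tgfbr2-KO cells and 11.5 UPM (7.01 to 17.7) in control cells, a ratio of 1.42 with an interval from 0.840 to 2.51, so no difference was detectable at this depth. Its log2 ratio of 0.51 was -0.31 with all marker thresholds doubled and -0.24 with cells thinned to 3000 UMIs. In Mrc1-high macrophages without those markers it had 39.7 UPM in Tgfbr2-KO cells and 2.57 UPM in control cells, 15.4-fold higher (8.48 to 31.3). Gbp8 had 103 UMIs or 30.6 UPM in Tgfbr2-KO and 2 UMIs or 1.15 UPM in control perivascular-marked cells, a ratio of 26.7 with an interval from 7.20 to 223. With all marker thresholds doubled, Gbp8 had no control UMI there and its log2 ratio had only a lower bound of 2.72, against 4.74. Outside the activation gate, Gbp3 was under 1.5-fold in Mrc1-high macrophages without those markers, at 1.36 (1.10 to 1.69).

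Gbp2b had another distribution over states. It had 78.1 UPM in the perivascular-marked Tgfbr2-KO cells and 1.72 UPM, from 3 UMIs, in the control cells of that state. In monocyte-gated Tgfbr2-KO cells, where Gbp2 was at 557 UPM, Gbp2b was at 11.5 UPM.

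**Figure D4:**
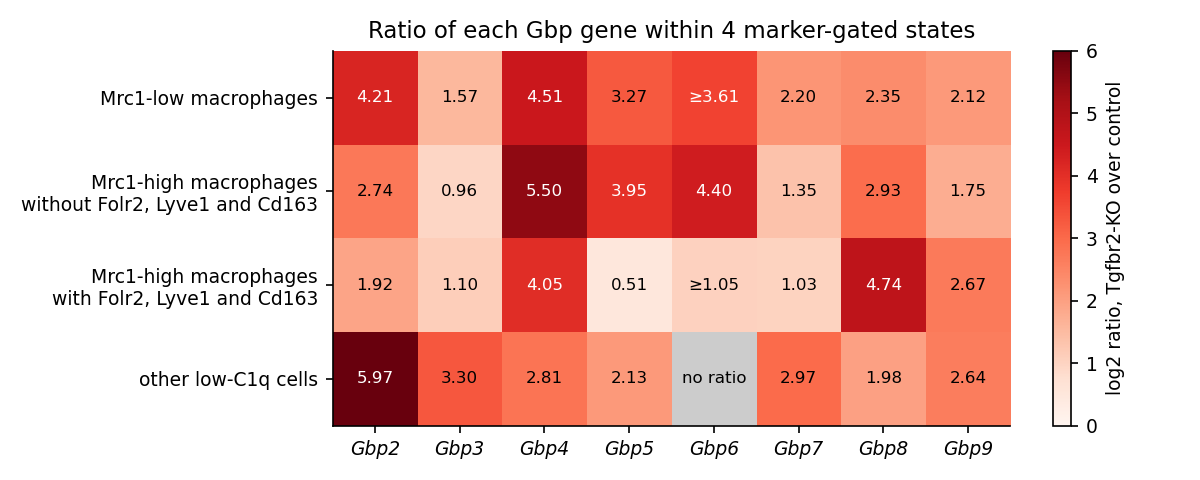
Log2 ratio of each Gbp gene, Tgfbr2-KO over control, in the 4 states compared (rows), with darker red for a higher ratio. Cells marked ≥ are lower bounds because the control pool had 0 UMIs, and no ratio is given for Gbp6 in other low-C1q cells; Gbp5 at 0.51 in perivascular-marked macrophages is the smallest ratio shown.

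The 5 states with under 50 cells in a pool are described only. Monocyte-gated cells had 1024 UPM of the family in 242 Tgfbr2-KO cells and 230 UPM in 35 control cells. Of these, 57.9% of Tgfbr2-KO cells and 14.3% of control cells were activated. Dendritic-gated cells had 1106 UPM in 32 Tgfbr2-KO cells and 183 UPM in 14 control cells. Proliferating cells had 527 UPM in 126 Tgfbr2-KO cells and 42.0 UPM in 47 control cells, and Fn1-rich macrophages had 451 UPM in 41 Tgfbr2-KO cells and 91.2 UPM in 147 control cells. Structural-gated cells had 1225 UPM in 30 Tgfbr2-KO cells and 168 UPM in 17 control cells. Monocyte-gated cells were 9.05% of the Tgfbr2-KO pool and 1.85% of the control pool, so levels over all cells also carry this difference in make-up.

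**Figure D5:**
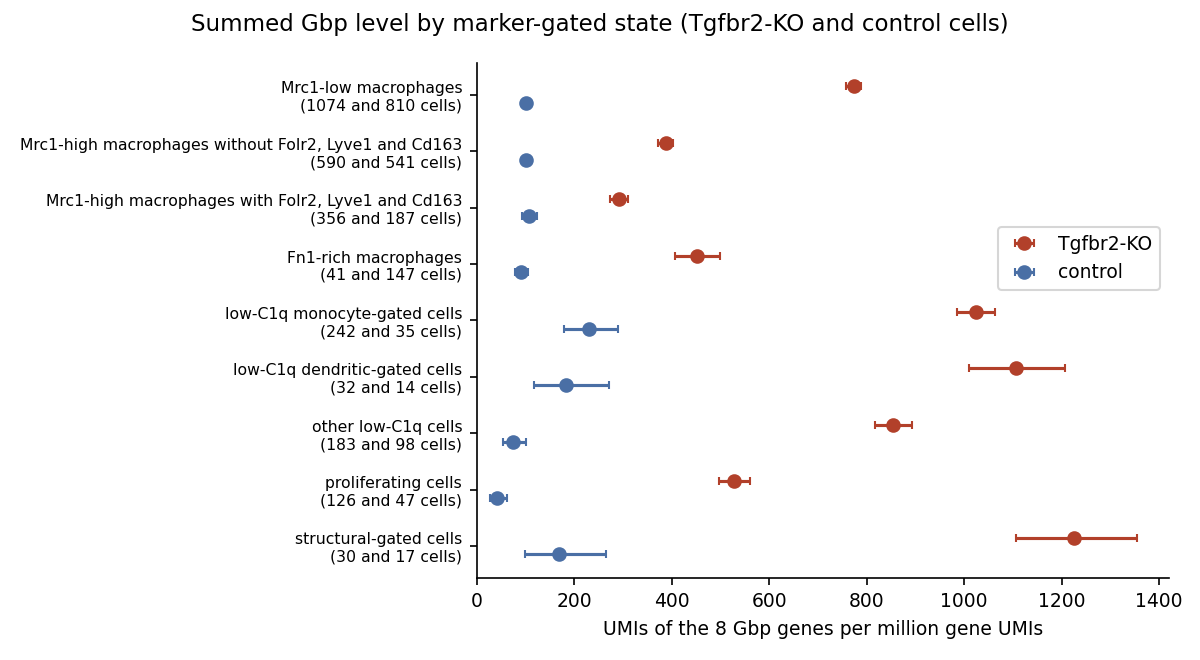
Summed level of the 8 Gbp genes in UPM in each of the 9 states, for Tgfbr2-KO cells (red, upper point) and control cells (blue, lower point), with exact 95% Poisson intervals and cell numbers beside each name. Red points lie to the right of blue points in all 9 states; blue points of the first 3 states sit close together near 100.3 to 108 UPM, and red points of the same states lie at 774, 388 and 291 UPM.

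Genes of interferon gamma signalling, which is known to induce the family, were examined together with other lists chosen beside it. Which signal acted in these cells was not tested. Of 11 counted interferon gamma signalling genes, 4 were 1.5-fold higher in the Tgfbr2-KO pool and 0 lower, with a median log2 ratio of 0.17 against 0.05 over all counted genes and background shares of 11.4% higher and 9.27% lower. Those higher included the interferon regulatory factor genes Irf1, Irf7 and Irf8, with ratios of 4.20, 4.94 and 2.32. The receptor and kinase genes were within 1.5-fold: Ifngr1 had 184 UPM in the Tgfbr2-KO pool and 185 UPM in the control pool, and Jak1 had 281 UPM in the Tgfbr2-KO pool and 319 UPM in the control pool. Stat3 differed little, with a ratio of 0.994 (0.960 to 1.03). Of 2 feedback inhibitors, Socs3 had a ratio of 0.713 (0.694 to 0.733). Socs1, below the stricter minimum, had a ratio of 2.30 (1.99 to 2.67), and 1.06 outside the activation gate. With a minimum of 20 UMIs, 7 of 14 genes of the list were higher and 0 lower, against 15.0% and 10.5% of 12508 genes. Their median log2 ratio was 0.69 against 0.09.

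Immunity-related GTPases, which act with the Gbp proteins at vacuoles, were higher too. All 9 measured members with at least 20 UMIs were higher, against 15.0% of the 12508 genes with that many UMIs, and their median log2 ratio was 2.97 against 0.09. Iigp1 had 161 UPM in the Tgfbr2-KO pool and 5.46 UPM in the control pool, 29.5-fold higher (23.9 to 36.8), and 9.85-fold higher outside the activation gate. Tgtp1 and Tgtp2 are near-identical copies, so their split is uncertain. With 2 and 7 control UMIs they passed the minimum through the Tgfbr2-KO pool alone, as did Gm4841 with 2.

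Genes for putting Gbp proteins in place differed less. Of 4 counted genes of the recruitment and ubiquitin-like conjugation list, 1 was higher and 1 lower, with a median log2 ratio of 0.09. Among all counted genes, 11.4% were higher and 9.27% lower, and the median was 0.05. With a minimum of 20 UMIs, 2 of 14 were higher and 1 lower, near the shares of 15.0% and 10.5% over 12508 genes. The median log2 ratio of the 14 was 0.01. Rnf213, an interferon-induced ubiquitin ligase, had 184 UPM in the Tgfbr2-KO pool and 54.6 UPM in the control pool, 3.37-fold higher (3.14 to 3.62). Sqstm1, the autophagy adaptor p62, had 587 UPM in the Tgfbr2-KO pool and 1066 UPM in the control pool, a ratio of 0.551 (0.540 to 0.563). Gabarap and Map1lc3b, ubiquitin-like proteins of autophagy, had ratios of 1.10 and 1.03. None of the 6 genes for lipid attachment to CaaX proteins, the anchor of Gbp2 and Gbp5, was past 1.5-fold in either direction. All 6 had at least 20 UMIs, where 15.0% of 12508 genes were higher and 10.5% lower. The median log2 ratio of the 6 was -0.04, against 0.09 over those genes.

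Inflammasome genes were mixed, with 2 of 6 counted higher, 1 lower and a median log2 ratio of -0.14. For comparison, the shares over all counted genes were 11.4% and 9.27%, around a median of 0.05. A minimum of 20 UMIs took in 11 genes of the list, 4 of them higher and 1 lower. The shares there were 15.0% and 10.5% of 12508 genes, and the medians 0.02 for the list and 0.09 for all. Casp1 and Gsdmd, below the stricter minimum, had ratios of 1.54 (1.42 to 1.68) and 1.92 (1.75 to 2.12). Outside the activation gate their ratios were 1.26 and 1.18. Pycard, the adaptor ASC, had 232 UPM in the Tgfbr2-KO pool and 116 UPM in the control pool, a ratio with an interval from 1.90 to 2.10, and was 1.45-fold higher outside the activation gate. Zbp1, a sensor of nucleic acid, was 8.26-fold higher. Nlrp3, whose assembly Gbp5 promotes, had 400 UPM in the Tgfbr2-KO pool and 791 UPM in the control pool, a ratio of 0.505 (0.493 to 0.518), and 0.644 outside the gate. Il1b and Ninj1 were within 1.5-fold, with ratios of 0.879 and 0.935.

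Other interferon gamma targets were mostly higher, in 7 of 9 counted genes with 0 lower and a median log2 ratio of 1.64. All counted genes had 11.4% higher, 9.27% lower and a median of 0.05. Cxcl9, a T cell chemokine used in the gate, had 1539 UPM in the Tgfbr2-KO pool and 43.0 UPM in the control pool. B2m, the light chain of MHC class I, was 1.82-fold higher (1.80 to 1.84). The MHC class II genes H2-Aa and H2-Ab1 were within 1.5-fold, with ratios of 1.08 and 1.22. Among type I interferon targets, all 10 measured genes with at least 20 UMIs were higher, against 15.0% of 12508 genes, with a median log2 ratio of 1.92 against 0.09. Rsad2, an antiviral enzyme, was 7.49-fold higher (6.56 to 8.59) and 5.27-fold outside the gate. Ifi44 and Cmpk2, with 19 and 18 control UMIs, passed the minimum through the Tgfbr2-KO pool alone.

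Outside the activation gate, where 4.89% of 1655 counted genes were 1.5-fold higher and 4.41% lower, the counts were 2 of 10 higher for interferon gamma signalling, 2 of 6 for other interferon gamma targets, 1 of 4 for the recruitment list and 0 of 5 for the inflammasome list, which had 1 lower. Over all lists together, 16 of 32 counted genes were higher in all cells, against 11.4% of all counted genes. Outside the gate 5 of 25 were higher, against 4.89%. With a minimum of 20 UMIs and no minimum in UPM, 46 of 81 list genes were higher in all cells, against 15.0% of 12508 genes.

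RNA of the ligands was scarce in these sorted cells. Ifng had 2 UMIs in the Tgfbr2-KO pool and 1 UMI in the control pool, so no fold is given. Ifnb1, the gene of interferon beta, had 1.85 UPM in the Tgfbr2-KO pool and 6.07 UPM in the control pool, a ratio of 0.305. Il12b, a subunit of an inducer of interferon gamma, was at 22.7 UPM in the Tgfbr2-KO pool and 10.6 UPM in the control pool. Il12a had 48 UMIs in the Tgfbr2-KO pool and 0 in the control pool. Markers of T and NK cells, which make interferon gamma, were rare in the sort, with 136 UMIs of 6 genes or 4.43 UPM in the Tgfbr2-KO pool and 8 UMIs or 0.491 UPM in the control pool, where 3 of the 6 genes were at 0. Their part in the Gbp levels was not tested.

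Some marker lists of other cells also differed between the pools. The 6 neutrophil markers summed to 139 UPM in the Tgfbr2-KO pool and 55.5 UPM in the control pool. The 6 classical monocyte markers summed to 1514 UPM in the Tgfbr2-KO pool and 701 UPM in the control pool, and the 6 structural markers to 119 UPM in the Tgfbr2-KO pool and 59.8 UPM in the control pool, with no marker of these lists at 0. Patrolling monocyte markers had a ratio of 1.95. Macrophage markers summed to 11303 UPM in the Tgfbr2-KO pool and 12583 UPM in the control pool. Lists of Fn1-rich and of CD206-negative interstitial macrophages were lower in the Tgfbr2-KO pool, with ratios of 0.356 and 0.640. Those of B cells, alveolar macrophages, dendritic cells, proliferating cells and CD206-positive interstitial macrophages were within 1.5-fold, between 0.789 and 1.41. The part of these lists in the Gbp levels was not tested, and the values within macrophage states above stand beside them.

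Likeness to the family was measured over 11 groups, each a state in a pool with at least 50 cells, as Pearson's r of log2(UPM + 1) with the summed family. The groups share 1 library and cells of 2 pools, so r is a description. Among 2650 genes with at least 100 UPM in a group, the 10 with the highest r included C130026I21Rik, Tap1, Ifi47, B2m, Tap2, Rnf213, H2-T22, Zbp1 and Il2rg, with r between 0.989 and 0.975. Tap1 and Tap2 encode the peptide transporter of MHC class I, and Ifi47 is an immunity-related GTPase. Within the family, each member against the sum of the other 7 gave the highest r for Gbp2, 0.980, and Gbp6, 0.965, and the lowest for Gbp7, 0.774, and Gbp8, 0.798. Gbp2 ranged over these groups between 7.06 and 557 UPM, and Gbp7 between 14.1 and 111 UPM.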

How the data were processed

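Whole-number UMI counts, unnormalized and covering all barcodes, were deposited. Cell Ranger 8.0, Seurat 5.1.0 and the build GRCm38 are named in the submitters' processing notes, and their settings are not stated there. In the hashtag table the authors give each called cell the fraction of posterior probability per assignment, and the deposited columns of hashtag counts are log10 values. Of 4887 called cells, 2738 carried the Tgfbr2-KO hashtag and 1933 the control hashtag, and 96 multiplets, 66 unassigned and 54 blank cells entered no comparison. Doublets of 2 cells with the same hashtag were not sought. Cells with at least 1000 UMIs, 500 genes and at most 10% mitochondrial UMIs were kept, which removed 101 cells. The same 4887 called barcodes appear in the RNA and hashtag libraries, by design.

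UMIs were summed per pool and state and divided by the summed gene UMIs. Intervals are exact, Poisson for UPM, conditional binomial for ratios and Clopper-Pearson for shares, and treat UMIs and cells as independent. A count of 0 was set to 3 counts for a bound, per pool and state, and a bound under 1 was left out. States were gated in order by summed UMIs per 10000 of structural (10), proliferating (5), C1q (10), dendritic (5), monocyte (20), Fn1-rich (15), Mrc1 (5) and Folr2, Lyve1 and Cd163 (5) markers. These thresholds, the haemoglobin genes and the minimum of 20 UMIs were chosen after the data had been seen. The 8 members and all lists were chosen with earlier results of these data known. Named genes are all members, up to 4 counted genes per list with the most UMIs, the 10 genes most like the family and Tgfbr2, and a few further list genes were named after their values were seen. One gene of these is not reported here. Sequences are from RefSeq on GRCm38.p6. The interval and ratio code was tested on simulated data. Python 3.11.15, numpy 2.4.6, scipy 1.17.1 and, for trimmed-mean scaling only, edgeR 4.0.16 were used.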

Additional observations from a re-analysis of the deposited data

Results flagged for a closer look

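Cells that entered no comparison also carried Gbp UMIs. The 95 cells called multiplets that passed the filters had 386.1 UPM (356 to 418) of the 8 genes, above the 101 UPM of the control pool, and 32 of them met the activation gate. The 65 unassigned cells had 205.1 UPM (168 to 248), with 4 in the gate, also above the control pool. The 44 blank cells had 72.6 UPM (43.7 to 113), an interval that includes the control level. Multiplets had a median of 17264 UMIs and unassigned cells 6566. The genotype of these cells is not known, and the source of their Gbp UMIs was not tested.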

How the results depend on the processing

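The family's log2 ratio over all cells, 2.70, stayed within its counting interval without a cell filter, under a stricter one, for cells assigned with a probability of 0.99 or more and under trimmed-mean scaling. It moved to 2.48 with cells thinned to 3000 UMIs, 2.54 with cells weighted equally, 2.91 with free RNA subtracted, 2.78 with Gbp2b added, and 1.41 without activated cells. The family was at least 1.5-fold higher in all 4 compared states under all 9 alternatives run on them. The difference in cells with a Gbp UMI, 30.9 percentage points, was 26.8 points at 1500 UMIs and 27.1 points with at least 2 UMIs. The difference in cells with 3 or more members, 11.4 points, was 5.18 points at 1500 UMIs. The Tgfbr2-KO share of Gbp2 in the family exceeded the control share by 26.9 points, by 30.9 points with free RNA subtracted and by 10.9 points without activated cells. The list genes called higher were 16 of 32, against 11.4% of all counted genes. They were 46 of 81 with a minimum of 20 UMIs and no minimum in UPM, against 15.0%. Without activated cells they were 5 of 25, against 4.89%. Those alternatives differ by construction in the genes or cells counted. Of 63 values for single members over all cells, 15 moved past their counting interval and none turned. Of 285 values within states, 51 moved, and 2 had the opposite sign, both of Gbp5 in perivascular-marked macrophages, whose main ratio was under 1.5-fold: -0.31 with the gate thresholds doubled and -0.24 with cells thinned to 3000 UMIs. The cause was not tested. A further 1 value over all cells and 28 within states had a pool with no UMI, or none above the free RNA limit, so the floor gave only bounds, and they were not compared. The alternatives with Gbp2b added and without activated cells in the states and in the family's make-up were chosen after seeing the data. No paired analysis was possible because there was 1 pool per genotype and no replicate. Depth limits the control values of Gbp4, Gbp6 and Gbp9 most.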
